A study of Mus musculus with 3 samples.

Results

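The tubulin isotypes of mouse melan-a cells, an immortalized line of pigmented melanocytes, were described here through 10 genes listed by symbol. They are the alpha-tubulins *Tuba1a*, *Tuba1b*, *Tuba1c* and *Tuba4a*, the beta-tubulins *Tubb2a*, *Tubb2b*, *Tubb3*, *Tubb5* and *Tubb6*, and the gamma-tubulin *Tubg1*. All 10 were among the 22698 Ensembl genes of the RNA-seq files, which hold 20 tubulin genes in all. RNA-seq was performed on 3 replicates labelled 1, 3 and 4, each sequenced on 3 lanes, with no treatment and no second condition. According to the labels, the cells have a C57BL/6J background, come from melanocytes of Ink4a-ARF-/- mice, and were kept in medium containing 10% fetal bovine serum, 200 nM 12-O-tetradecanoylphorbol 13-acetate (a phorbol ester that activates protein kinase C) and 200 pM cholera toxin (which raises cyclic AMP). Each value is a level in FPKM, a read count divided by gene length and library size, after scaling of the libraries by the trimmed mean of M values (TMM). FPKM is per length, but the gene length used is not given in the sources used here, and levels of isotypes that share sequence depend on how shared reads were treated, as described below. With a single group no comparison of conditions was possible. Between isotypes, an exact two-sided sign-flip test over 3 replicates cannot go below p = 0.25, so differences are given against the spread of the replicates and not as test results.

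Alpha- and beta-tubulin pair into the dimers from which microtubules are built, and gamma-tubulin in its ring complex starts new microtubules at the centrosome. Vertebrates carry several genes for each of the alpha and beta chains. The isotypes differ mainly in their acidic carboxy-terminal tails, which face outwards on the microtubule and are read by motors and modifying enzymes. In melanocytes, microtubules carry melanosomes along the dendrites. *Tubb3* encodes class III beta-tubulin, the antigen commonly used to stain neurons, and melanocytes share their neural crest origin with peripheral neurons. It is also the gene next to *Mc1r*, the receptor for the melanocyte-stimulating hormone.

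The labelled cell type was checked against marker genes. All 9 melanocyte markers had at least 1 FPKM in every replicate, as did 10011 of the 22698 genes of the files. The highest were the pigment enzymes *Tyrp1* (3144 FPKM) and *Dct* (1412 FPKM) and the melanosome protein gene *Mlana* (578 FPKM). Markers of other cells were low in sum, with 4.35 to 4.89 FPKM per replicate for 15 neuronal genes, 1.62 to 1.97 FPKM for 7 fibroblast genes and 0.41 to 0.75 FPKM for 6 keratinocyte genes. The 3 highest fibroblast genes were *Col1a1* (1.54 FPKM), *Col3a1* (0.107 FPKM) and *Pdgfra* (0.077 FPKM), and the 3 highest keratinocyte genes *Krt10* (0.49 FPKM), *Cdh1* (0.043 FPKM) and *Krt5* (0.023 FPKM). *Cdkn2a*, the gene behind the labelled Ink4a-ARF genotype, was listed at 19.24, 16.49 and 24.32 FPKM in replicates 1, 3 and 4. A gene-level value does not show which exons gave these reads, so the genotype could not be checked in this way. The scaled library size, recovered from short genes whose values must stand for whole reads, was 47100000 to 66300000 reads. At these sizes 3 reads on a gene of 1 kb came to 0.045 to 0.064 FPKM, far below every one of the 10 genes.

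How well reads can be assigned to an isotype depends on its sequence, so the coding sequences of the mm9 reference (Ensembl gene models) are compared first. Among the alpha-tubulins, *Tuba1a* and *Tuba1b* were identical at 1333 of 1356 bases (98.3%), *Tuba1a* and *Tuba1c* at 97.6%, and *Tuba1b* and *Tuba1c* at 98.4%, with a longest shared run of 468 bases. In the last 90 coding bases, which encode the tail, *Tuba1b* differed from *Tuba1a* at 1 base and *Tuba1c* at 13. *Tuba4a* stood apart from the other alpha-tubulins, at 85.3% to 85.6%, and shared no run over 29 bases with them.

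For the beta-tubulins, the last 90 coding bases, stop codon included, are shown because they encode the carboxy-terminal tail, where class III differs from the other classes. *Tubb5* lies at chr17:35971927-35972016 on the minus strand, *Tubb2a* at chr13:34166337-34166426 on the minus strand, *Tubb2b* at chr13:34219340-34219429 on the minus strand, *Tubb3* at chr8:125945493-125945582 on the plus strand and *Tubb2c* at chr2:25077828-25077917 on the minus strand. *Tubb2c* is the older symbol of *Tubb4b* and is not among the 10 genes, but its level below puts it second among the beta-tubulins. Capitals mark bases that differ from *Tubb5*, or that *Tubb5* lacks, in the alignment of the whole coding sequences.
Tubb5: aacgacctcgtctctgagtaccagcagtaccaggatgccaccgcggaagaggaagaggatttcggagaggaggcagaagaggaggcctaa
Tubb2a: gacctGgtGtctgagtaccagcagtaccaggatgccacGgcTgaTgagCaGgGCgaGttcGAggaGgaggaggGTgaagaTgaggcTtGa
Tubb2b: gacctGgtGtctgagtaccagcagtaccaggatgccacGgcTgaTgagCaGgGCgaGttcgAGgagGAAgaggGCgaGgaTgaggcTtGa
Tubb3: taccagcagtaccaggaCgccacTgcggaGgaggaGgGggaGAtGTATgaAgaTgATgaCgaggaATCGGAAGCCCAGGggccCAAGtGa
Tubb2c: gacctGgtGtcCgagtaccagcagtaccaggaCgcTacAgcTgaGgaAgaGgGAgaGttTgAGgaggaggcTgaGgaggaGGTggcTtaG
The count of bases marked in the last 90 was 18 for *Tubb2a*, 21 for *Tubb2b*, 23 for *Tubb2c* and 35 for *Tubb3*. *Tubb3* had the longest coding sequence of the 5, with 1353 bases against 1335 for *Tubb5*, and was 82.3% identical to it. *Tubb2a* and *Tubb2b* were the one close pair of the beta-tubulins, identical at 96.5% of aligned bases with a shared run of 551 bases. The pairs of *Tubb3*, *Tubb5*, *Tubb6* and *Tubb2c* shared 80.7% to 86.5%, and *Tubb6* came closest to *Tubb3*.

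At the other end of the coding sequence, codon 4 sorts the genes named in this part by chain. In alpha- and beta-tubulin mRNAs the first codons carry the signal by which excess free tubulin triggers decay of the mRNA being translated. The first 12 coding bases are printed for 1 or 2 genes of each chain, with the codons after the start codon in capitals.
Tuba1a: atgCGTGAGTGC
Tuba4a: atgCGCGAGTGC
Tubb5: atgAGGGAAATC
Tubb3: atgAGGGAGATC
Tubg1: atgCCGAGAGAA
*Tuba1b* and *Tuba1c* carry the same 12 bases as *Tuba1a*. The 4 alpha-tubulins are split by an intron within these bases, whereas those of *Tubb2a*, *Tubb2b*, *Tubb3*, *Tubb5* and *Tubg1* lie in 1 exon. *Tubb2a* matches *Tuba4a* in the codons before codon 4, and *Tubb5* at codon 4, so the earlier codons do not separate alpha from beta.

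*Tuba1a*, an alpha-tubulin best known from developing neurons, had the highest level of the 10 genes. Its Ensembl gene ENSMUSG00000072235 lies on chromosome 15 of mm9 from 98780272 to 98783982 on the minus strand, with 4 exons. Replicates 1, 3 and 4 had 1006, 1225 and 870 FPKM, a mean of 1034 ± 179 FPKM (SD, n = 3), which is rank 25 of 22698 genes. Its neighbour *Tuba1b* (ENSMUSG00000023004, 98761856 to 98764996), a broadly expressed alpha-tubulin, had 286, 348 and 253 FPKM, a mean of 296 ± 48 FPKM (SD, n = 3). *Tuba1a* was thus above *Tuba1b* in 3 of 3 replicates without overlap, by a ratio of 3.51, 3.52 and 3.44. The ratio varied far less for its size than either level, because both genes were highest in replicate 3 and lowest in replicate 4. Its SD was 0.043 on a mean of 3.49. The coefficient of variation (SD over mean) was 17.4% for the level of *Tuba1a* and 16.4% for that of *Tuba1b*.

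The remaining alpha-tubulins were lower. *Tuba1c*, the third gene of the chromosome 15 cluster (ENSMUSG00000043091, 98860322 to 98868536, plus strand), had 62.5, 68.9 and 56.3 FPKM, a mean of 62.5 ± 6.3 FPKM (SD, n = 3). *Tuba4a*, on chromosome 1 (ENSMUSG00000026202, 75211549 to 75215828, minus strand), had 14.3, 16.6 and 13.0 FPKM, a mean of 14.6 ± 1.9 FPKM (SD, n = 3), and was the lowest of the 10. Of the other alpha-tubulin genes in the files, the testis genes *Tuba3a* and *Tuba3b* and the gene *Tubal3* were listed at 0 in all replicates, where 3 reads would have come to at most 0.0422 FPKM on any of them. *Tuba8* was at 0.03, 0.03 and 0.01 FPKM, close to its value of 3 reads (0.025, 0.0286 and 0.0203 FPKM). As shares of the summed alpha-tubulin FPKM, *Tuba1a* made up 73.4% ± 0.4, *Tuba1b* 21.0% ± 0.2, *Tuba1c* 4.48% ± 0.29 and *Tuba4a* 1.05% ± 0.04 (SD, n = 3).

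The beta-tubulins were spread more evenly. *Tubb5*, the constitutive class I gene on chromosome 17 (ENSMUSG00000001525, 35970871 to 35975251, minus strand), led with 538, 605 and 471 FPKM, a mean of 538 ± 67 FPKM (SD, n = 3) and 34.5% ± 0.2 of the summed beta-tubulin FPKM. *Tubb2c*, a class IV gene also known from cilia, followed with 315, 340 and 286 FPKM and 20.1% ± 0.7. *Tubb6*, class V, on chromosome 18 (ENSMUSG00000001473, 67550371 to 67562402, plus strand), had 244, 275 and 217 FPKM, a mean of 245 ± 29 FPKM (SD, n = 3) and 15.7% ± 0.1. *Tubb3* had 219, 249 and 181 FPKM, a mean of 216 ± 34 FPKM (SD, n = 3), rank 220 of all genes and 13.8% ± 0.6 of the beta-tubulin sum. These 4 genes together with the class II pair held nearly the whole sum, since *Tubb4*, a brain isotype, had a mean of 1.39 FPKM and *Tubb1*, the platelet isotype, was listed at 0 in every replicate.

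The class II genes *Tubb2a* and *Tubb2b*, both enriched in neurons, lie 48999 bases apart on the minus strand of chromosome 13 (ENSMUSG00000058672, 34166170 to 34169877, and ENSMUSG00000045136, 34218877 to 34222223). *Tubb2a* had 134, 148 and 123 FPKM, a mean of 135 ± 13 FPKM (SD, n = 3). *Tubb2b* had 109, 131 and 95.0 FPKM, a mean of 112 ± 18 FPKM (SD, n = 3). The ranges of the pair overlapped, but within each replicate *Tubb2a* was the higher, by 1.23, 1.13 and 1.29 times. *Tubg1*, the gamma-tubulin on chromosome 11 (ENSMUSG00000035198, 100981252 to 100987733, plus strand), had 78.9, 85.2 and 73.9 FPKM, a mean of 79.3 ± 5.7 FPKM (SD, n = 3). Its paralog *Tubg2*, which 29487 bases separate from it, was 19.6 ± 1.1 times lower, at a mean of 4.04 FPKM. As deposited, the summed beta-tubulin FPKM was 19.6 ± 1.0 times the level of *Tubg1* (SD, n = 3). The treatment of shared sequence, described below, bears on this ratio too.

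**Figure D1:**
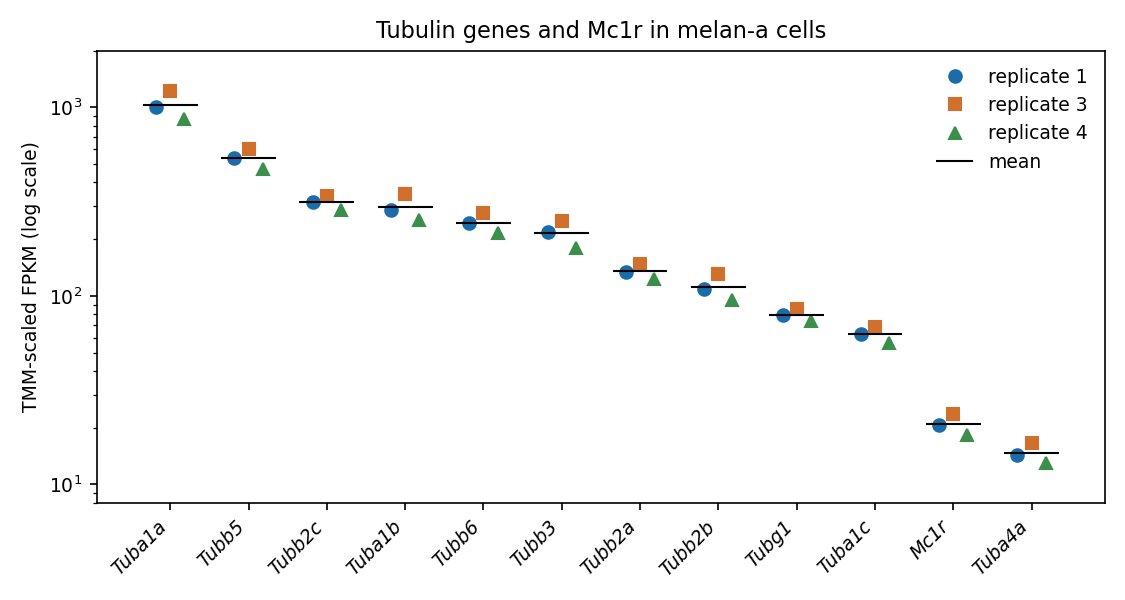
Level of the 10 tubulin genes, of *Tubb2c* and of *Mc1r* (vertical axis, TMM-scaled FPKM on a log scale) in replicates 1, 3 and 4, with a line at the mean. Replicate 3 is the highest and replicate 4 the lowest for each gene, and the means fall from 1034 FPKM for *Tuba1a* to 14.6 FPKM for *Tuba4a*.

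In descending order of mean level the 10 genes were *Tuba1a*, *Tubb5*, *Tuba1b*, *Tubb6*, *Tubb3*, *Tubb2a*, *Tubb2b*, *Tubg1*, *Tuba1c* and *Tuba4a*. Each of the 9 neighbouring pairs held its order within all 3 replicates. The replicate ranges overlapped for 3 of the pairs, namely *Tuba1b* and *Tubb6* (mean ratio 1.20 ± 0.06), *Tubb6* and *Tubb3* (1.14 ± 0.06), and *Tubb2a* and *Tubb2b* (1.22 ± 0.08, all SD, n = 3). Because the genes rose and fell together by replicate, the ratio within a replicate was above 1 for these pairs too in 3 of 3 replicates. The widest gap was between *Tuba1c* and *Tuba4a*, at 4.29 ± 0.13 times. The median of the 10 mean levels was 176 FPKM, against 0.277 FPKM over all genes of the files. Of the 10 genes, 9 had a mean of at least 50 FPKM, as did 1368 of the 22698 genes. The 10 genes together made up 0.710%, 0.799% and 0.655% of the summed FPKM of replicates 1, 3 and 4, and 89.3% ± 0.6 of the FPKM of all 20 tubulin genes (SD, n = 3). They were chosen with earlier results of these data known, and the unlisted tubulin genes other than *Tubb2c* had means of at most 4.07 FPKM. These figures therefore describe the list and not tubulin genes at large.

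The alpha-tubulins summed to 1369, 1659 and 1191 FPKM and the beta-tubulins to 1559, 1749 and 1373 FPKM. The ratio of alpha to beta was 0.878, 0.948 and 0.868, a mean of 0.898 ± 0.044 (SD, n = 3). As deposited, beta therefore exceeded alpha in 3 of 3 replicates. The order turned with the genes counted, since the ratio was 1.13 over the listed members alone, without *Tubb2c*, and it also turned with the treatment of shared sequence described next.

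The near-identical coding sequences, and any other copies in the genome, bear on these levels. The program htseq-count, which the authors used, leaves out reads that the aligner places at more than 1 position. For each gene, every window of 50 or 90 bases of its longest coding transcript was therefore looked up in the mm9 genome and in the transcripts of other genes. Of the 50-base windows of *Tuba1b*, 14.3% occurred at no other place, and for *Tuba1a* and *Tuba1c* the shares were 28.1% and 36.8%. Within the coding part alone the shares fell to 5.1%, 13.8% and 9.2%. *Tuba1b* shared 44.9% of its 50-base windows with *Tuba1a*, 59.3% with *Tuba1c*, and 49.9% with *Gm14150*, an annotated pseudogene. More often still, a copy lay outside annotated genes, for 74.5% of the windows of *Tuba1b*, 60.8% of *Tuba1a* and 54.0% of *Tuba1c*. A window can have copies at several places. In contrast, 98.5% of the windows of *Tuba4a*, 98.6% of *Tubb5* and every one of *Tubb6* were unique. The class II pair lay between, with 49.6% for *Tubb2a* and 42.7% for *Tubb2b*, as did *Tubb2c* with 42.1%. The copies of *Tubb2c* windows were not in other tubulin genes. They lay outside annotated genes (53.5% of its 50-base windows) or within a gene that is not a tubulin (8.8%). *Tubb3* reached 88.5% and *Tubg1* 85.9%.

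**Figure D2:**
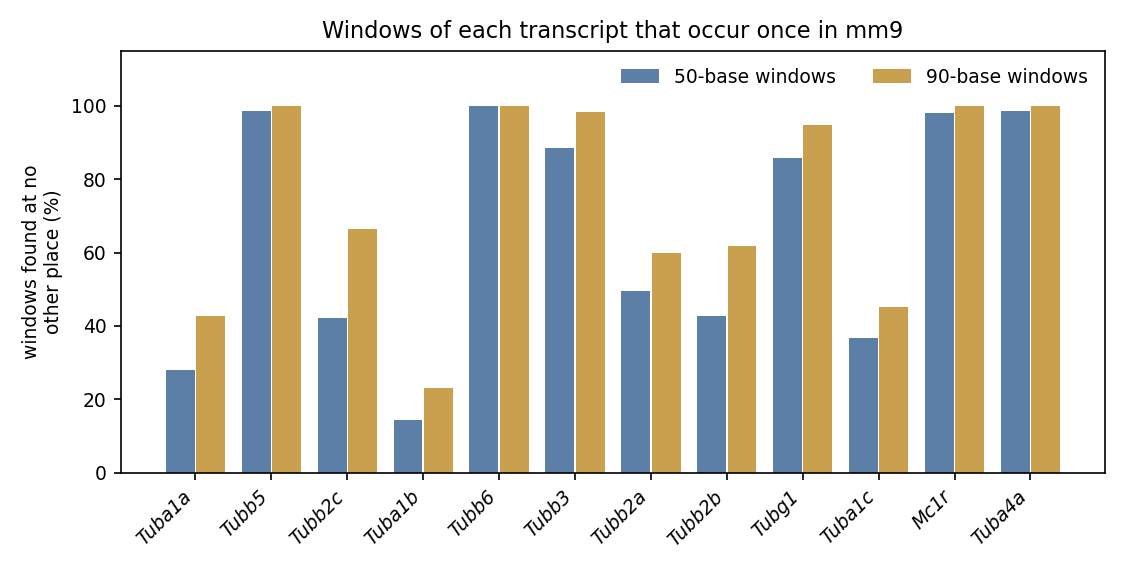
Share of 50-base and 90-base windows of each transcript that were found at no other place in the mm9 genome or in other genes' transcripts (vertical axis, percent), with genes in the order of their level. The 3 genes of the alpha-tubulin cluster stay at or below 45.1% even with 90 bases, whereas *Tubb5*, *Tubb6* and *Tuba4a* are at 98.5% or above with either length.

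Dividing each level by its share of unique windows gave the level that would follow if reads from all other windows had been lost. With 50-base windows *Tuba1a* came to 3678 FPKM, *Tuba1b* to 2067 and *Tuba1c* to 170, against 546 for *Tubb5*, 272 for *Tubb2a*, 261 for *Tubb2b*, 245 for *Tubb6* and 244 for *Tubb3*. *Tuba1a* kept the highest level, but its lead over *Tuba1b* shrank from 3.49 to 1.78 times, or to 1.90 times with 90-base windows. *Tuba1b* moved above *Tubb5* with either length. Among the beta-tubulins, *Tubb2c* took the lead from *Tubb5* with 50-base windows (32.2% against 23.6% of the sum), but not with 90-base windows (25.2% against 28.6%). The ratio of alpha to beta turned from 0.898 to 2.55 ± 0.14 with 50-base windows and to 2.04 ± 0.10 with 90-base windows (SD, n = 3). The length of the reads and whether they were paired are not given in the sources used here, so neither setting is known to match the libraries, and the number of reads lost was not tested. The order of the alpha and beta sums in these files thus depends on how shared sequence is treated, while *Tuba1a* leads the alpha-tubulins under all 3 settings.

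**Figure D3:**
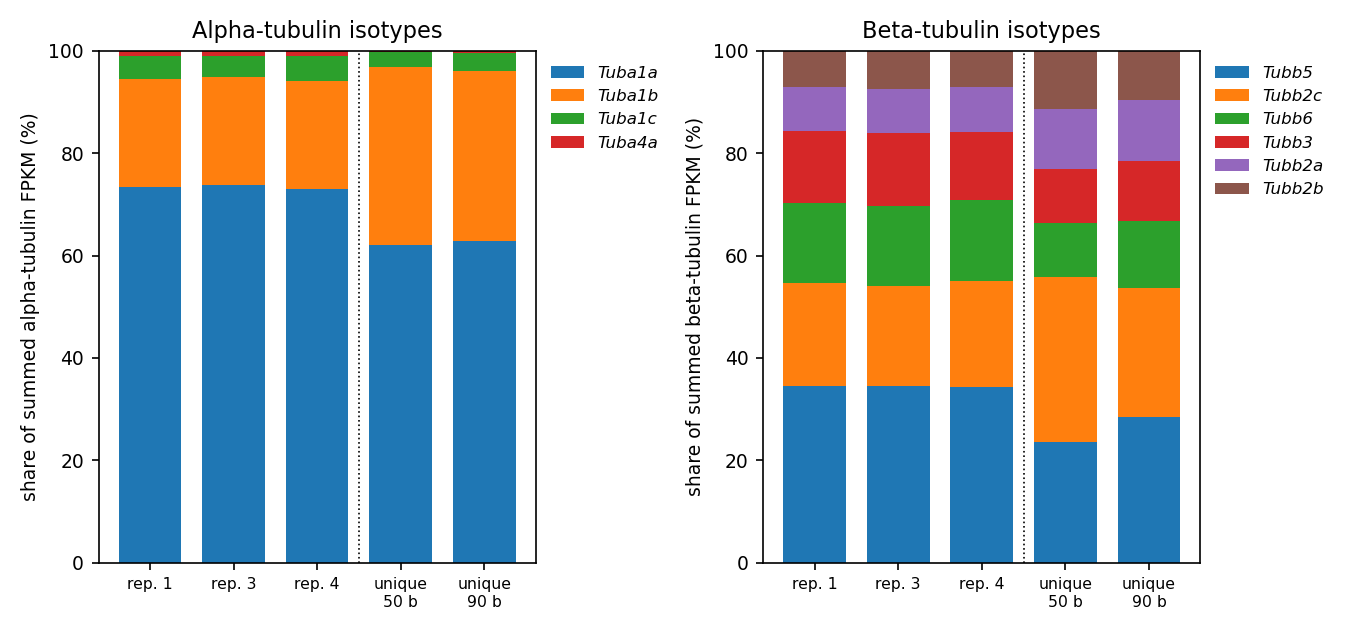
Share of each isotype in the summed FPKM of its chain (vertical axis, percent, from 0), for alpha-tubulins on the left and beta-tubulins on the right. The 3 bars left of the dotted line are the replicates as deposited and the 2 on the right are means over replicates after division by the share of unique 50-base or 90-base windows. The 3 replicates look alike, with *Tuba1a* at 73.0% to 73.9%, whereas the share of *Tuba1b* grows from 21.0% to 34.9% and 33.1% when shared windows are taken into account. Isotypes below 0.2% under every setting are left out.

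*Tubb3* lies downstream of *Mc1r* on the plus strand of chromosome 8, and 681 bases separate the end of *Mc1r* (125930982 to 125934642, a single exon) from the start of *Tubb3* (ENSMUSG00000062380, 125935324 to 125945915, 4 exons). *Mc1r* had 20.6, 23.7 and 18.2 FPKM, a mean of 20.8 ± 2.8 FPKM (SD, n = 3), at rank 3161 of all genes. *Tubb3* was higher in 3 of 3 replicates without overlap, by 10.6, 10.5 and 9.93 times, a mean of 10.4 ± 0.4 (SD, n = 3). In estimated reads this was about 22071, 21939 and 22358 on *Tubb3*, whose single annotated transcript has 1868 bases. *Mc1r*, with 3661 bases, had about 4069, 4094 and 4415 reads. The ratio was thus smaller in reads than in FPKM, and it depends on the gene lengths used, which are not given. The next gene downstream, *Def8*, starts 20970 bases after the end of *Tubb3* and had a mean of 28.4 FPKM, 7.66 ± 0.32 times below *Tubb3*. The high level of *Tubb3* was therefore shared by neither neighbour. Unlike those of the alpha-tubulin cluster, 98.0% of the 50-base windows of *Mc1r* were unique, and the ratio of *Tubb3* to *Mc1r* came to 11.5 per unique 50-base window and 10.5 per unique 90-base window. Reads running from *Mc1r* into *Tubb3* cannot be seen in values per gene.

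**Figure D4:**
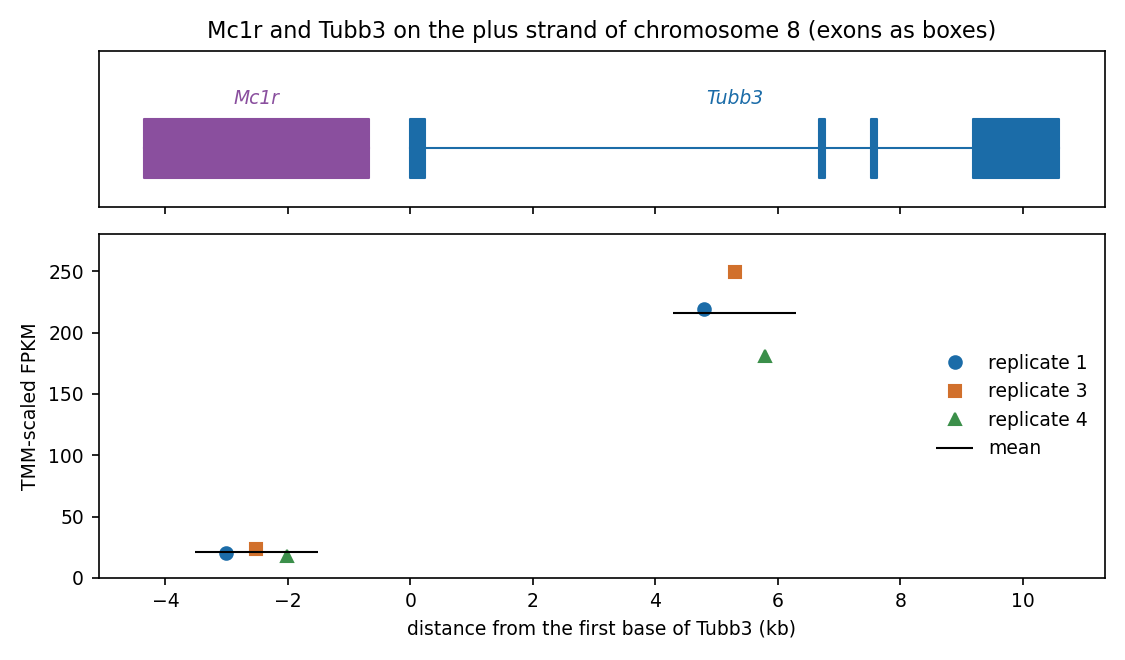
Above, the exons of *Mc1r* and *Tubb3* to scale, placed by their distance in kb from the first base of *Tubb3*. Below, their levels in replicates 1, 3 and 4 (TMM-scaled FPKM, axis from 0) at the middle of each gene, with a line at the mean. *Tubb3* lies between 181 and 249 FPKM and *Mc1r* between 18.2 and 23.7 FPKM.

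The 15 genes of the neuronal marker list had lower levels than *Tubb3*. The list leaves out genes named elsewhere here that are also known from neurons, such as *Tuba1a* (1034 FPKM) and *Mtap6* (104 FPKM). Of the 15, 5 were listed at 0 in all replicates, among them *Snap25* of the synaptic vesicle machinery and *Dcx*, the doublecortin of migrating neurons. *Rbfox3*, the gene of the neuronal nuclear antigen NeuN, had 0, 0 and 0.01 FPKM. The highest was *Mapt*, which encodes the microtubule-associated protein tau, with 4.48, 4.33 and 3.96 FPKM, and it was the single marker with at least 1 FPKM in all replicates. Next came *Ina*, a neurofilament gene, with a mean of 0.163 FPKM and *Syp*, the synaptophysin gene, with 0.157 FPKM. The sum of all 15 was thus at most 4.89 FPKM in a replicate, against at least 181 FPKM for *Tubb3*.

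The genes that fold, nucleate, bind and modify tubulin were described through a list for each role. Counts at 1 FPKM stand next to 10011 of all 22698 genes with at least that level in every replicate. The folding list, which holds the cytosolic chaperonin subunits, prefoldins and tubulin cofactors, had 22 of 22 genes at 1 FPKM or more in all replicates and a median of 55.0 FPKM, led by the chaperonin genes *Cct7* (154 FPKM), *Cct2* (140 FPKM) and *Cct5* (105 FPKM). The list of the gamma-tubulin ring and its recruiting factors also had all 20 genes at this level, but with a median of 10.7 FPKM. Its highest genes were *Haus8*, an augmin subunit, at 23.7 FPKM and the ring subunits *Tubgcp2* at 18.3 and *Tubgcp3* at 15.3 FPKM, all below *Tubg1*. Of 27 genes for microtubule-binding proteins, 19 reached 1 FPKM in all replicates. *Mtap6*, a microtubule stabilizer best known from neurons, was the highest of them at 104 ± 10 FPKM, followed by *Mtap4*, the widespread microtubule-associated protein, at 67.9 ± 5.2 FPKM, and *Prc1*, which bundles midzone microtubules in dividing cells, at 52.7 ± 12.3 FPKM (SD, n = 3).

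Of 22 genes for enzymes that modify tubulin and their partners, 14 reached 1 FPKM in all replicates. *Sirt2*, a deacetylase with tubulin among its targets, had 114 ± 15 FPKM, *Ttll12* 36.6 ± 8.6 FPKM and *Ttll1*, a glutamylase subunit, 16.3 ± 1.2 FPKM (SD, n = 3). Of the 7 severing genes, 6 reached this level, among them *Katna1*, the catalytic katanin subunit, at 8.59 FPKM and *Fignl1* at 6.22 FPKM. Among all genes of the files, 10011 of 22698 had at least 1 FPKM in every replicate. Of the centriolar tubulins, *Tubd1* had 3.87, 3.81 and 4.53 FPKM, and *Tube1* had 1.08, 0.89 and 1.5 FPKM, below 1 FPKM in replicate 3.

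The 10 genes varied together between replicates. Each was highest in replicate 3 and lowest in replicate 4, a pattern found in 39.0% of the 10233 genes with a mean of at least 1 FPKM and a value above 0 in every replicate, and in 66.6% of those in the same GC bins as the 10 genes. The GC content of their longest transcripts was 52.1% to 57.9%, above the median of 50.5% of these genes. Across those genes, which are not independent replicates, the log2 ratio of replicates 3 and 4 rose with GC content (Spearman's rho 0.781). The log2 ratio of the 10 genes ranged from 0.21 for *Tubg1* to 0.49 for *Tuba1a*. Compared with the median of genes of like GC content, 6 of the 10 were higher and 4 lower, with differences from -0.21 for *Tubg1* to 0.35 for *Tuba1a*. *Tubb3*, the gene with the highest GC content of the 10, differed from that median by 0.05.

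**Figure D5:**
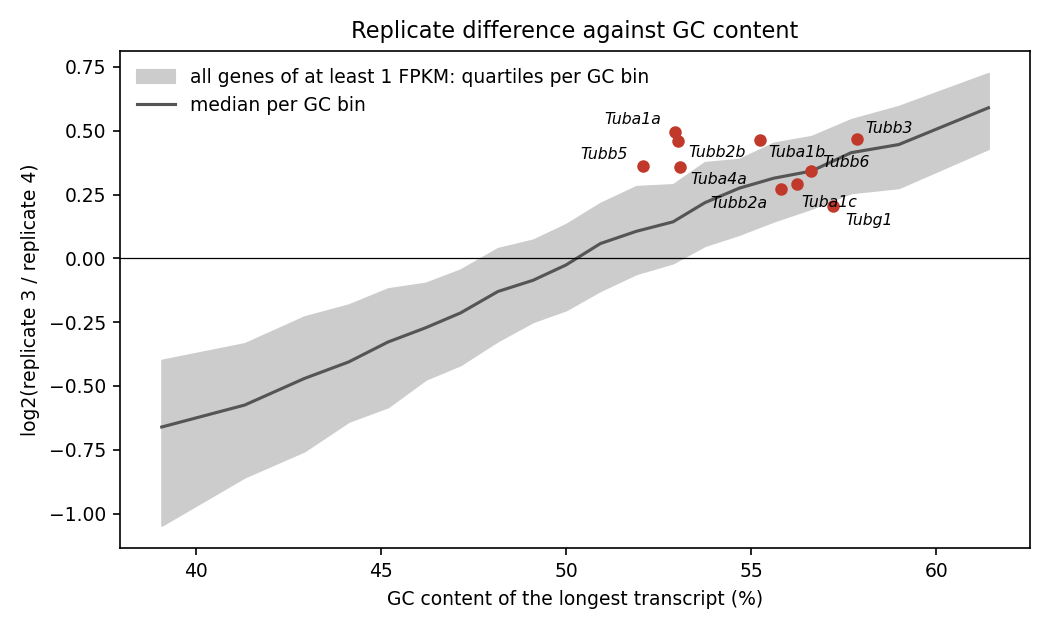
Log2 ratio of replicates 3 and 4 (vertical axis) against GC content of the longest transcript in percent (horizontal axis). The line and the grey band give the median and the quartiles of genes of at least 1 FPKM in 20 GC bins, and the red points are the 10 tubulin genes. *Tuba1a*, *Tubb2b*, *Tubb5* and *Tuba4a* lie above the band, *Tuba1b* just above it, *Tubb3* and *Tubb6* near the median, and *Tubg1* below the band.

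For the 9 genes of at least 50 FPKM, the coefficient of variation over replicates was 7.14% to 17.4%, with a median of 12.5%, next to a median of 10.6% over the 1367 annotated genes of that level. Counting error in the shallowest case came to 0.325% to 2.51% of the level of the 10 genes, so the spread between replicates was wider than counting alone gives. After subtraction of the median deviation of genes in the same GC bin, the median coefficient of variation was 6.13% for the 9 genes and 6.00% for all genes of that level. *Tubb3* then varied by 1.86%, *Tubb6* by 1.12% and *Tubb2a* by 1.44%, whereas *Tuba1a* kept 12.4% and *Tubb2b* 11.2%. The part of GC content in the differences between replicates was not tested.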

How the data were processed

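RNA from 3 replicates of untreated melan-a cells was sequenced as stranded mRNA libraries. The authors trimmed 10 bases from each read, aligned to mm9 with STAR 2.3.0e, removed rRNA reads with RSeQC, and ran htseq-count 0.5.3p3 against the transcripts of Ensembl 67. The deposited values are TMM-scaled FPKM, rounded to 2 decimals. The submitters' processing notes name edgeR, but how counts became FPKM and the gene length used are not given in the sources used here.

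Positions and sequences were read from the mm9 genome and Ensembl 65 gene models, in which 22324 of 22698 genes were found. Library sizes were recovered from 137, 151 and 72 genes of 1 transcript (mean distance from whole reads 0.054, 0.054 and 0.071), and estimated reads use joined exon lengths. Counting error covers counting alone. Without raw counts no count test was run. GC adjustment used 20 bins of genes with a mean of at least 1 FPKM and a value above 0 in all replicates. Members and lists were chosen with earlier results of these data known. Named genes were the 10 members, all other tubulin genes, the genes on either side of *Tubb3*, and the 3 highest of each list, of which 1 is not reported here. *Cdkn2a*, *Snap25*, *Dcx*, *Rbfox3* and the pseudogene *Gm14150* were named after their values were seen. The window search, library sizes and GC adjustment were tested on simulated data. Python 3.11.15, numpy 2.4.6, pandas 2.3.3, numba 0.67.0, Biopython 1.88 and pysam 0.24.0 were used. Alternatives were each replicate left out, the median, rescaling, GC adjustment, unique windows, members alone, summed reads, pseudocounts, a filter on low values and a log scale for the spread.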

Additional observations from a re-analysis of the deposited data

How the results depend on the processing

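The share of *Tuba1a* among the alpha-tubulins, the share of *Tubb5* among the beta-tubulins, the ratio of alpha to beta and the ratio of *Tubb3* to *Mc1r* moved by less than 1 SD with each replicate left out and with the median over replicates, and the order of the 10 genes was the same. With 3 replicates neither change can reach 1 SD, and pairs in order within every replicate must stay in order. These settings therefore could not show instability. Rescaling to equal sums cannot change a share or ratio within a replicate, and GC adjustment leaves the mean of a gene nearly fixed, so the same values under these settings show no stability. With 1 replicate left out they ranged over 73.2% to 73.7%, 34.4% to 34.5%, 0.873 to 0.913 and 10.2 to 10.6. Per unique 50-base window they came to 62.0%, 23.6%, 2.55 and 11.5, and per unique 90-base window to 62.9%, 28.6%, 2.04 and 10.5. Both window settings kept 6 of the 9 neighbouring pairs in order. With the listed members alone, *Tubb5* came to 43.2% and alpha to beta to 1.13, above 1, since *Tubb2c* is then left out. With summed reads in place of FPKM, the values were 70.6%, 48.2% and 0.648, which weights genes by length. A pseudocount of 1 gave a ratio of *Tubb3* to *Mc1r* of 9.92. Of the 10 levels, all moved on rescaling, which changes the unit, and 6 and 5 moved per unique 50-base and 90-base window. Ranking only genes above 0 in all replicates removes genes of low level and could not move the 10 ranks. On the log2(FPKM + 1) scale the SD of the 10 genes was 0.10 for *Tubg1* to 0.25 for *Tuba1a*, the same ends as for the coefficient of variation. No paired analysis was possible because there is 1 group, so no groups share replicate numbers, and ratios between isotypes were taken within replicates. Depth does not limit the 10 genes, but *Tuba8*, *Tuba3a*, *Tuba3b*, *Tubal3* and *Tubb1* are listed at 0 or lie near the value of 3 reads.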
